A study of Mus musculus with 19 samples.

Results

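Hepatic gene expression in mice given AM251 followed by IDFP (AM251/IDFP) was set against that in mice given the vehicle DMSO, over all 9346 genes detected in liver. The arrays were chosen by their titles alone, which gave 5 AM251/IDFP and 6 DMSO arrays, 11 of the 19 in the series. The other 8 arrays held livers of mice given IDFP alone, and they entered only to sort the changes by whether IDFP alone gave them too. AM251 and IDFP were each injected i.p. at 10 mg/kg in DMSO, AM251 first, and livers were taken 4 h after treatment. All mice were male Swiss-Webster animals of 7 weeks, all had been fasted before and were injected under isoflurane, and each array held the RNA of a single mouse. No group received AM251 without IDFP, so effects of AM251 by itself and effects that need both drugs cannot be told apart.

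Endocannabinoids are lipid messengers that activate the G protein-coupled receptor CB1, and they are broken down by the hydrolases MAGL, which cleaves 2-arachidonoylglycerol, and FAAH, which cleaves anandamide. IDFP is an organophosphorus compound that inhibits both hydrolases, along with other serine hydrolases. AM251 is a CB1 antagonist, the iodinated analog of rimonabant. The comparison asks which changes of hepatic expression are found when AM251 has been given before IDFP. Hepatocytes, the main cell of the liver, answer fasting, stress hormones and foreign compounds largely through transcription.

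Signals are the deposited bead intensities after background correction, in intensity units, and changes are differences of mean log2 signals (AM251/IDFP minus DMSO unless stated) with their SE from a limma fit over all 19 arrays. A gene was called changed at an adjusted p under 0.05. Between 8725 and 8769 genes were detected per AM251/IDFP array, 8684 to 8747 per IDFP array and 8701 to 8773 per DMSO array. The 14 hepatocyte markers on the array were all detected, with summed signals of 271800 to 288700 units in AM251/IDFP mice, 261500 to 288200 in IDFP mice and 269000 to 288400 in DMSO mice. Cnr1, the gene of CB1, was above background on 0 and 3 of the 19 arrays by its 2 probes and was not tested. AM251/IDFP mouse 3 correlated least with its group (mean r over genes 0.975, against up to 0.984 in that group) and had the highest signals of several neutrophil and acute phase genes, given below. RNA came from whole liver, so fewer cells of a type and less RNA per cell cannot be told apart.

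With AM251/IDFP, 923 of the 9346 genes (9.88%) differed from DMSO. Of these, 342 (3.66%) were higher and 581 (6.22%) lower than in DMSO-treated mice, with median folds of 1.47 and 0.710. Changes of more than 2-fold were found for 53 higher and 24 lower genes, while an unadjusted p under 0.05 was reached by 2300. The 5 AM251/IDFP and 6 DMSO signals did not overlap for 456 genes (4.88% of those tested, 2.05% higher and 2.82% lower), and 156 of the higher and 224 of the lower calls were among them. With IDFP alone 1523 genes (16.3%) differed from DMSO, 6.76% of all tested being higher and 9.53% lower, and 1011 genes (10.8%) differed between AM251/IDFP and IDFP, 5.97% higher and 4.85% lower with AM251/IDFP.

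The 923 genes were sorted by the behavior of IDFP alone. In 387 genes, 138 higher and 249 lower, both treatments differed from DMSO in the same direction. These persisting genes made up 41.9% of the AM251/IDFP calls and 25.4% of the IDFP calls, both of which were made against the same 6 DMSO arrays. Their median folds were 1.54 with AM251/IDFP and 1.46 with IDFP for the higher genes, and 0.700 and 0.720 for the lower genes. Another 213 genes, 85 higher and 128 lower, differed from both DMSO and IDFP in the same direction while IDFP alone was not called. Their median folds were 1.45 (higher) and 0.680 (lower) with AM251/IDFP and 1.00 and 0.982 with IDFP. In 8 genes the treatments were called in opposite directions, and 315 genes, 114 higher and 201 lower, could not be sorted, because AM251/IDFP differed from DMSO but neither IDFP vs. DMSO nor AM251/IDFP vs. IDFP met these conditions. A further 1128 genes were called for IDFP and not for AM251/IDFP.

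**Figure D1:**
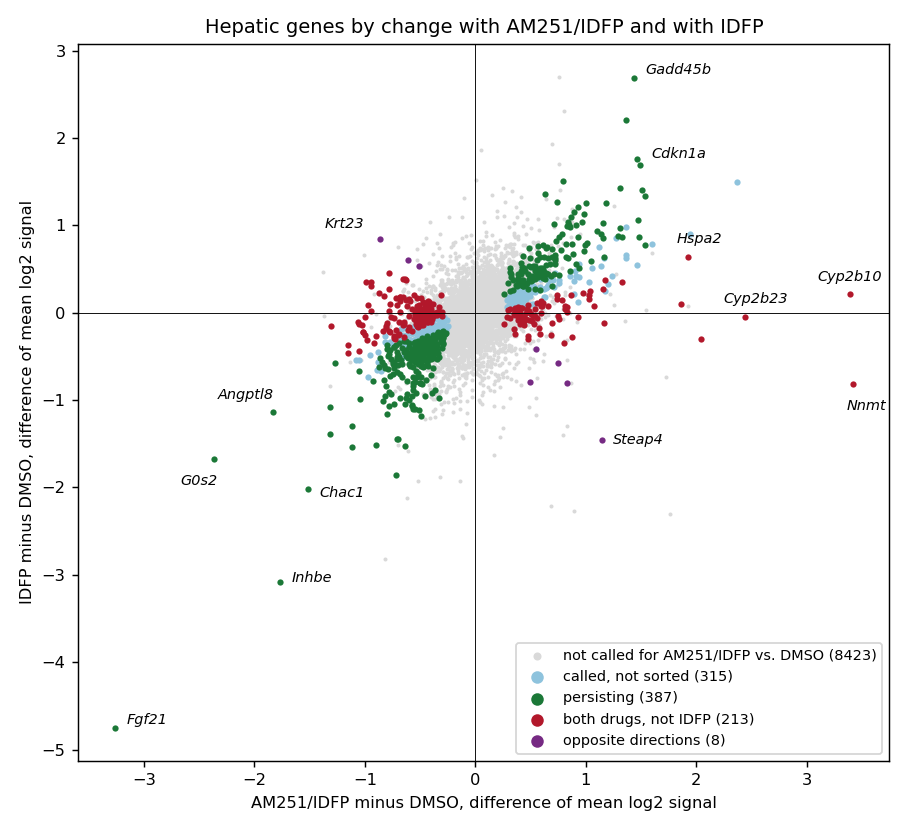
Change of each of the 9346 genes with AM251/IDFP (horizontal axis) and with IDFP (vertical axis), both as differences of mean log2 signal from the same 6 DMSO mice. Colors mark the 387 persisting genes, the 213 changed with both drugs and not with IDFP, the 8 changed in opposite directions, the 315 called but not sorted, and all others in gray. Nnmt and Cyp2b10 lie far to the right near the horizontal axis, and Fgf21 lies at the lower left.

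The counts depended on single mice. Without AM251/IDFP 2, 3 or 4 the genes called fell to 561, 539 and 547, and without DMSO 3, 4 or 5 to 408, 552 and 503. Persisting genes fell to 241 and 257 without AM251/IDFP 2 and 4 and to 149, 203 and 172 without DMSO 3, 4 and 5, and numbered 592 without DMSO 6. Genes changed with both drugs only numbered 138 and 94 without AM251/IDFP 2 and 3, and 125 without DMSO 3. The DMSO mice differed among themselves along the same genes. Of the 342 higher genes, DMSO 6 had the highest DMSO signal in 122 and DMSO 1 in 109, whereas DMSO 3 had the lowest in 179, and of the 581 lower genes DMSO 6 and 1 had the lowest in 248 and 241 and DMSO 3 the highest in 299. No other DMSO mouse held any of these places as often. Over all 9346 genes, DMSO 3 had the highest DMSO signal in 1967 and the lowest in 1939, more than any other DMSO mouse. DMSO 6 was highest in 1424 and lowest in 1777 of all genes, and DMSO 1 in 1507 and 1631. The cause of this spread was not tested.

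The largest rises with AM251/IDFP were in Nnmt and in cytochrome P450 genes of the Cyp2b family, and none of them was called with IDFP alone. For single genes, the signals of AM251/IDFP mice 1 to 5 are given in that order, and those of the 8 IDFP and 6 DMSO mice as the lowest, the median and the highest. Nnmt, which encodes nicotinamide N-methyltransferase, gave 7767, 6693, 5737, 8199 and 5499 in AM251/IDFP mice, 76.2, 327 and 1970 in IDFP mice, and 125, 708 and 3158 in DMSO mice. All 5 AM251/IDFP mice thus exceeded every other mouse, whereas IDFP and DMSO mice spread over a wide and overlapping range. Nnmt rose by 3.42 (SE 0.75, adjusted p = 0.00902) and differed from IDFP by 4.23 (95% interval 2.77 to 5.70, adjusted p = 0.000756), and its dimmer probe gave a log2 change of 3.24. Cyp2b10, the classical target of the nuclear receptor CAR and a P450 that oxidizes many drugs, gave 10660, 9576, 8063, 14000 and 7025 in AM251/IDFP mice, 418, 898 and 2326 in IDFP mice, and 582, 944 and 1579 in DMSO mice. Again no IDFP or DMSO mouse reached the lowest AM251/IDFP mouse, and the log2 change was 3.39 (SE 0.36, adjusted p = 4.54e-05), a fold of 10.5. The dimmer probe of Cyp2b10 gave a smaller log2 change of 1.74 (unadjusted p = 1.43e-09), so the probes did not give the same size. Cyp2b23, a close relative, gave 2573, 2188, 1831, 2102 and 1754 in AM251/IDFP mice, 218, 338 and 787 in IDFP mice, and 301, 372 and 497 in DMSO mice, and the groups were equally separate. It rose by 2.44 (SE 0.27, adjusted p = 4.54e-05), a fold of 5.43. Genes of this family share much of their sequence, so that part of either signal could come from the other transcript. IDFP alone gave 0.21 (adjusted p = 0.715) for Cyp2b10 and -0.04 (adjusted p = 0.926) for Cyp2b23, and AM251/IDFP exceeded IDFP by 3.18 (95% interval 2.48 to 3.89, adjusted p = 1.16e-05) and 2.49 (95% interval 1.96 to 3.01, adjusted p = 1.09e-05). The calls of Nnmt, Cyp2b10 and Cyp2b23 were kept in all 30 alternatives.

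Cyp2b10 and Cyp2b23 belong to a list of genes known to respond to CAR or PXR, nuclear receptors that foreign compounds activate. Of its 35 tested members 5 rose, none fell and 30 were not called (14.3% higher, against 3.66% of all genes), and the median log2 change was 0.10, against -0.01 over all genes. Sult1d1, a sulfotransferase, gave 2266, 2150, 1510, 2615 and 2106 in AM251/IDFP mice, 796, 1290 and 1854 in IDFP mice, and 1011, 1193 and 1453 in DMSO mice. The AM251/IDFP mice lay above all DMSO mice but overlapped the IDFP mice, and the change was 0.81 (SE 0.21, adjusted p = 0.0195). Its call was lost without AM251/IDFP 4 or DMSO 3 (adjusted p of 0.0502 to 0.056). Alas1, the first enzyme of heme synthesis, rose by 1.20 (SE 0.35, adjusted p = 0.0339), a call that was lost without AM251/IDFP 1, 2, 4 or 5 or DMSO 2, 3 or 4 (adjusted p of 0.0527 to 0.0809) and with trended and robust variances and in the fit of only the 2 groups (adjusted p of 0.0532 to 0.0643). The fifth member, Abcc2, an exporter of conjugates into bile, rose by 0.68, and by 0.56 (adjusted p = 0.0489) with IDFP, and lost its call in 20 of the 30 alternatives. The list's 5 calls fell to 2 or 3 without AM251/IDFP 2 or 4 or DMSO 2, 3 or 4. Fmo5, a flavin monooxygenase outside the list, rose by 1.07 (SE 0.28, adjusted p = 0.0209), a call that was lost without AM251/IDFP 4 or DMSO 3 or 5 (adjusted p of 0.0553 to 0.063) and with the mean over probes and in the fit of only the 2 groups (adjusted p of 0.0601 to 0.094), and its dimmer probe gave 0.44 (unadjusted p = 0.253). Cyp3a11, the usual marker of PXR and chosen after its values were seen, had a log2 change of 0.12 (adjusted p = 0.611).

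Other rises found with both drugs concerned secreted, transport and stress genes. Slc10a6, a carrier of steroid sulfates, gave 106, 255, 490.2, 143 and 178 in AM251/IDFP mice, 33.6, 62.5 and 110.0 in IDFP mice, and 29.4, 60.0 and 95.8 in DMSO mice. Every AM251/IDFP mouse exceeded the DMSO mice and 1 of them lay just below the highest IDFP mouse, and the rise was 1.86 (SE 0.37, adjusted p = 0.00497). Hspa2, an HSP70 family chaperone, gave 946, 1197, 643, 1412 and 1349 in AM251/IDFP mice, 285, 438 and 776 in IDFP mice, and 144, 319 and 411 in DMSO mice and rose by 1.92 (SE 0.30, adjusted p = 0.000924), and only AM251/IDFP mouse 3 reached into the IDFP range. Of 25 heat shock and cold-inducible genes 3 rose and none fell (12% higher, against 3.66% of all genes), among them Hspb8, by 0.75 (SE 0.17, adjusted p = 0.0117). Hcar2, the receptor for niacin and beta-hydroxybutyrate, was dim, with 131, 193, 193, 100.4 and 194 in AM251/IDFP mice, 49.0, 77.9 and 127 in IDFP mice, and 46.0, 65.0 and 77.5 in DMSO mice. It rose by 1.32 (SE 0.23, adjusted p = 0.00228) without overlap with DMSO, and only AM251/IDFP mouse 4 fell below some IDFP mice. Susd6 rose by 0.93 (SE 0.18, adjusted p = 0.00457), with signals of 1442, 1809, 2167, 1530 and 1544 in AM251/IDFP mice and 549.5, 858 and 1371 in DMSO mice. Tff3, a secreted trefoil peptide, gave 388, 346, 522, 636 and 149.9 in AM251/IDFP mice, 36.2, 60.5 and 205 in IDFP mice, and 46.2, 59.8 and 244 in DMSO mice. AM251/IDFP mouse 5 overlapped the highest DMSO and IDFP mice, the change was 2.04 (SE 0.52, adjusted p = 0.0192), and the call was lost without AM251/IDFP 4 (adjusted p = 0.0539). Tff3 was above background on all AM251/IDFP arrays, on 4 of 8 IDFP arrays and on 3 of 6 DMSO arrays, and its change was 3.23 with a floor of 10 units in place of normexp. Slc10a6 was likewise detected on 5 of 8 IDFP and 3 of 6 DMSO arrays, with a change of 3.00 under that floor. Ddit4, an inhibitor of mTORC1 signaling, rose by 1.16 (SE 0.33, adjusted p = 0.0281), and its call was lost without AM251/IDFP 2, 3, 4 or 5 or DMSO 3, 4 or 5 (adjusted p of 0.0561 to 0.0869) and in the fit of only the 2 groups (adjusted p = 0.0622).

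Ribosome biogenesis factors, which assemble ribosomal subunits in the nucleolus, showed more rises than falls. Of 63 tested, 8 rose, 1 fell and 54 were not called (12.7% higher, against 3.66% of all genes), with a median log2 change of 0.16. Grwd1, a histone and ribosome assembly factor, gave 235, 266, 301, 199 and 229.9 in AM251/IDFP mice, 123, 175 and 194 in IDFP mice, and 139.5, 170.1 and 192 in DMSO mice. The AM251/IDFP mice lay above every other mouse by a small margin, and Grwd1 rose by 0.52 (SE 0.13, adjusted p = 0.0142). Rrp12, which helps to export ribosomal subunits from the nucleus, gave 719.5, 831, 948, 739 and 716 in AM251/IDFP mice, 297, 464 and 616 in IDFP mice, and 304, 471 and 617 in DMSO mice and rose by 0.76 (SE 0.19, adjusted p = 0.0184), a call that was lost without DMSO 3 (adjusted p = 0.05). Gnl2, a nucleolar GTPase, rose by 0.60 (SE 0.13, adjusted p = 0.00862) with the same separation, and its call was lost with the mean over probes (adjusted p = 0.0766). Mybbp1a, Nop58 and Nolc1 rose by 0.40, 0.59 and 0.26, and these 6 were not called with IDFP. Nhp2 and Rcl1 rose with IDFP too, and the helicase Ddx47 fell by 0.30. The other 2 probes of Ddx47 gave 0.00 and 0.01 (unadjusted p of 0.973 and 0.946), and its call was lost without AM251/IDFP 2, 3 or 4 or DMSO 3, 4 or 5 (adjusted p of 0.0505 to 0.0761) and with no detection filter, with the mean over probes and in the fit of only the 2 groups (adjusted p of 0.0668 to 0.502). The other probes of Rcl1 gave 0.42 and -0.05 (unadjusted p of 0.00729 and 0.85), and its call was lost with the mean over probes (adjusted p = 0.182). The 8 rises became 5 without AM251/IDFP 2 or 3 and 4 without DMSO 3. Lists of related function stood closer to the background of 3.66% higher and 6.22% lower. Of 31 aminoacyl-tRNA synthetases 1 was higher and 2 were lower (3.23% and 6.45%), and of 39 proteasome subunits 2 were higher (5.13%).

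The falls found with both drugs only included Arhgef19, Lasp1, Gpr146 and Cyb561a3. Arhgef19 gave 101, 106, 85.0, 134 and 88.1 in AM251/IDFP mice, 173, 206 and 383 in IDFP mice, and 194, 238 and 335 in DMSO mice. All 5 AM251/IDFP mice lay below every IDFP and DMSO mouse, and Arhgef19 fell by 1.31 (SE 0.19, adjusted p = 0.000599). Lasp1, an actin-binding adaptor, gave 2077, 2261, 2213, 1728 and 1867 in AM251/IDFP mice, 3158, 3832 and 4332 in IDFP mice, and 3226, 4249 and 5125 in DMSO mice and fell by 1.03 (SE 0.12, adjusted p = 6.94e-05), again without overlap. Its 2 dimmer probes gave log2 changes of -0.37 and -0.23 with unadjusted p of 0.101 and 0.194, so the probes did not give the same size. Cyb561a3, a reductase of the lysosomal membrane, gave 238, 145, 159, 161 and 153 in AM251/IDFP mice, 275, 328 and 398 in IDFP mice, and 262, 318 and 486 in DMSO mice. Its highest AM251/IDFP mouse, number 1, still lay below the lowest IDFP and DMSO mice, and it fell by 1.00 (SE 0.15, adjusted p = 0.000658). Gpr146, an orphan receptor of hepatocytes, fell by 1.05 (SE 0.22, adjusted p = 0.00715), and Pxylp1, a phosphatase of proteoglycan synthesis, by 0.94 (SE 0.20, adjusted p = 0.0082), both without overlap with either group. The dimmer probe of Gpr146 gave -0.13 (unadjusted p = 0.488), and its mean over probes -0.59 (adjusted p = 0.0403). Bok, a BCL2 family protein, gave 342, 361, 289.9, 284 and 319 in AM251/IDFP mice, 563, 797 and 1086 in IDFP mice, and 358, 651 and 945 in DMSO mice, so that AM251/IDFP mouse 2 overlapped the lowest DMSO mouse, and fell by 0.95 (SE 0.20, adjusted p = 0.00836). Txnl4b, a splicing factor, fell by 0.94 (SE 0.22, adjusted p = 0.0128). These 7 calls were kept in all 30 alternatives.

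Neu1, the lysosomal sialidase, fell by 0.99 (SE 0.27, adjusted p = 0.0257), but its groups overlapped and the call was lost without AM251/IDFP 1 or 4 or DMSO 4 or 5 (adjusted p of 0.0545 to 0.0681) and in the fit of only the 2 groups (adjusted p = 0.0647). Ckb, a creatine kinase, gave 198, 264, 222, 224 and 319 in AM251/IDFP mice, 292, 517 and 1185 in IDFP mice, and 376, 514 and 559 in DMSO mice and fell by 0.97 (SE 0.25, adjusted p = 0.0216), a call that was lost without DMSO 3 or 5 (adjusted p of 0.05 to 0.0516). The phosphate transporter Slc34a2 was not above background on any AM251/IDFP array. It was at least 1.55-fold lower there than in DMSO mice, in which it was detected on 5 of 6 arrays (adjusted p = 0.0342), and the call was lost without AM251/IDFP 1, 2, 3, 4 or 5 or DMSO 2, 3 or 5 (adjusted p of 0.0549 to 0.0903).

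**Figure D2:**
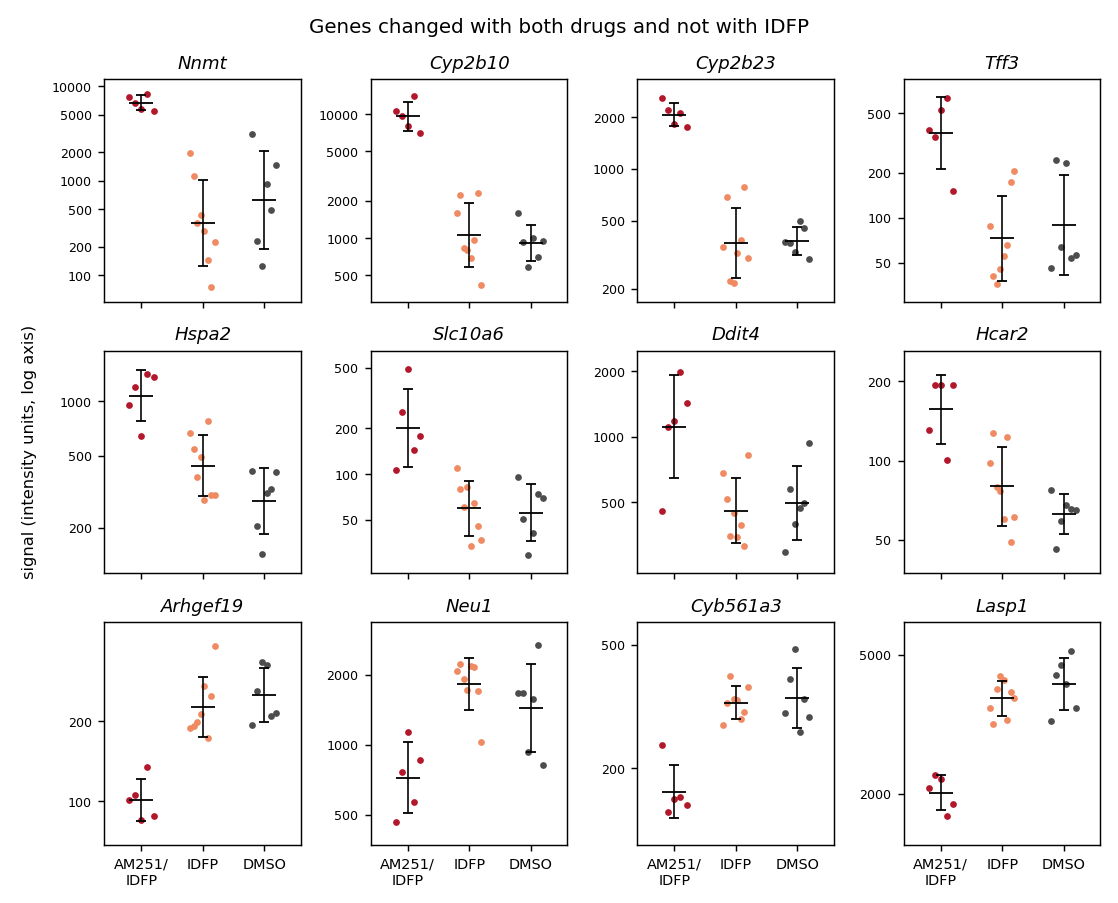
Signals of 12 genes changed with both drugs and not with IDFP in each mouse, in intensity units on log axes, with AM251/IDFP left (n = 5), IDFP in the middle (n = 8) and DMSO right (n = 6). Points are mice and black bars the mean ± SD of log2 signals. Nnmt, Cyp2b10 and Cyp2b23 show the AM251/IDFP mice above all others, and Arhgef19, Cyb561a3 and Lasp1 show them below all others.

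Of 11 tested genes of the endocannabinoid system itself, 1 rose and 1 fell (9.09% each way, against 3.66% and 6.22% of all genes). Neither was called with IDFP alone by the brightest probe of its gene. Gde1, a phosphodiesterase that can release anandamide from its precursor, gave 8612, 5967, 5681, 7767 and 7909 in AM251/IDFP mice, 3221, 5015 and 5747 in IDFP mice, and 3104, 4765 and 5166 in DMSO mice. The AM251/IDFP mice lay above all DMSO mice, and only mouse 3 reached into the IDFP range, and Gde1 rose by 0.74 (SE 0.17, adjusted p = 0.0116). Its class was less stable than its call, since without AM251/IDFP 1, 4 or 5 the difference from IDFP was no longer called. The dimmer probes of Gde1 gave larger log2 changes of 1.24 and 1.26. They also rose with IDFP alone, by 0.54 and 0.49 (unadjusted p of 0.00336 and 0.0126). Faah gave 2606, 2806, 1920, 2408 and 2723 in AM251/IDFP mice, 2881, 3064 and 3424 in IDFP mice, and 2962, 3195 and 4466 in DMSO mice and fell by 0.43 (SE 0.11, adjusted p = 0.0191). This call was lost without AM251/IDFP 3 (adjusted p = 0.0571) and with the mean over probes and in the fit of only the 2 groups (adjusted p of 0.0691 to 0.277), and it left its class in 22 of the 30 alternatives. The difference from IDFP was -0.32 (95% interval -0.53 to -0.11, adjusted p = 0.0464). Its other probes gave log2 changes of -0.44 and 0.20, which differ in sign. Mgll, which encodes MAGL, gave a difference of -0.01 (95% interval -0.33 to 0.30, adjusted p = 0.977).

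The largest falls with AM251/IDFP were falls that IDFP also gave. They included the secreted factors Fgf21, Inhbe, Inhba and Angptl8 and the enzymes and inhibitors Chac1 and G0s2. Fgf21, a fasting hormone made by the liver, gave 721, 509.6, 1692, 169 and 736 in AM251/IDFP mice, 96.8, 177 and 497 in IDFP mice, and 2713, 7154 and 8398 in DMSO mice. Every AM251/IDFP mouse lay below every DMSO mouse, with mouse 3 the highest and mouse 4 the lowest, and Fgf21 fell by 3.26 (SE 0.50, adjusted p = 0.00078), a fold of 0.104. Inhbe, the beta E subunit of inhibin, gave 551, 251, 429, 347 and 362 in AM251/IDFP mice, 64.7, 154 and 286 in IDFP mice, and 860.2, 1264 and 1766 in DMSO mice and fell by 1.77 (SE 0.29, adjusted p = 0.00153). Chac1, an enzyme of glutathione breakdown, gave 2258, 3106, 3494, 2026 and 3090 in AM251/IDFP mice, 1437, 1963 and 2426 in IDFP mice, and 5289, 8160 and 11520 in DMSO mice. The groups of both genes were separate from DMSO, and Chac1 fell by 1.51 (SE 0.19, adjusted p = 0.00015). With IDFP alone the log2 changes were -4.76 (adjusted p = 1.28e-06) for Fgf21, -3.08 (adjusted p = 4.53e-07) for Inhbe and -2.01 (adjusted p = 4.53e-07) for Chac1. AM251/IDFP was higher than IDFP by 1.50 (95% interval 0.52 to 2.47, adjusted p = 0.0429) for Fgf21 and 1.31 (95% interval 0.74 to 1.89, adjusted p = 0.00415) for Inhbe, whereas for Chac1 the difference of 0.50 (95% interval 0.13 to 0.88, adjusted p = 0.0803) was not called. The falls of Fgf21 and Inhbe were thus smaller with AM251/IDFP than with IDFP.

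For G0s2, Angptl8 and Inhba a difference from IDFP was not called. G0s2, an inhibitor of the lipase ATGL, gave 397, 197, 173, 182 and 299.5 in AM251/IDFP mice, 202, 399.5 and 729 in IDFP mice, and 639.8, 1382 and 1826 in DMSO mice. It fell by 2.37 (SE 0.31, adjusted p = 0.000234) with AM251/IDFP, and the difference from IDFP was -0.70 (95% interval -1.31 to -0.09, adjusted p = 0.139). Angptl8, a secreted inhibitor of lipoprotein lipase that feeding induces, gave 196, 114, 177, 124 and 158 in AM251/IDFP mice, 141, 233 and 479 in IDFP mice, and 319, 496 and 1390 in DMSO mice and fell by 1.83 (SE 0.31, adjusted p = 0.00186), with a difference from IDFP of -0.69 (95% interval -1.30 to -0.08, adjusted p = 0.146). Inhba, the beta A subunit of inhibin and activin, gave 92.0, 81.2, 95.6, 143 and 79.1 in AM251/IDFP mice, 74.0, 102 and 308 in IDFP mice, and 148, 238 and 416 in DMSO mice and fell by 1.31 (SE 0.31, adjusted p = 0.0132), with a difference of -0.24 (95% interval -0.85 to 0.37, adjusted p = 0.681). In all 3 genes the AM251/IDFP and DMSO mice did not overlap. The calls of all 6 genes against DMSO were kept in the 30 alternatives.

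Of the 6 falls just described, Fgf21, Inhbe, Chac1 and Angptl8 carry the same short motif before their start, as does Got1, a rise described further on, and G0s2 and Inhba do not hold it in the window searched. The motif TGATGNAA is the core of the C/EBP-ATF response elements through which ATF4 acts on genes of amino acid shortage. It was searched on both strands of RefSeq promoters (build GRCm38.p6, 250 bases before to 50 after the gene start), and capitals mark the match, here TGATGCAA or its reverse complement, in 68 bases that are shown because the promoters belong to 4 of the largest persisting falls and to 1 persisting rise.
Fgf21: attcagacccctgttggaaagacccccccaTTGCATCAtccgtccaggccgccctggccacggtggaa
Inhbe: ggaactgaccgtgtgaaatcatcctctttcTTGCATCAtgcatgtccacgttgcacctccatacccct
Chac1: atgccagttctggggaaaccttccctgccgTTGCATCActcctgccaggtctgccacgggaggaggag
Angptl8: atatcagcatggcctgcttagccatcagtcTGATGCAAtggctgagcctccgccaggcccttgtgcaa
Got1: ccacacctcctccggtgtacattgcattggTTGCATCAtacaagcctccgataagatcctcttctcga
The stretches lie at chr7:45615592-45615659 (minus strand, match starting 139 bases before the gene start) for Fgf21, chr10:127351992-127352059 (minus strand, match starting 181 bases before the gene start) for Inhbe, chr2:119351019-119351086 (plus strand, match starting 193 bases before the gene start) for Chac1, chr9:21835350-21835417 (plus strand, match starting 130 bases before the gene start) for Angptl8 and chr19:43524670-43524737 (minus strand, match starting 102 bases before the gene start) for Got1. TGATGNAA was found in 3.97% of 32851 promoters, in 3.11% of the 7621 tested genes that had one, in 11 of 210 persisting lower genes (5.24%) and in 4 of 106 persisting higher genes (3.77%). The printed form, TGATGCAA, was found in 0.895% of all promoters, in 0.814% of the tested genes, in 4 persisting lower genes (1.9%), which are the 4 falls printed, and in 2 persisting higher genes (1.89%). A match is a description of the sequence and does not show that a factor binds there.

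ATF4 target genes as a list did not move one way. Of 30 tested, 3 rose, 3 fell and 24 were not called (10% each way, against 3.66% and 6.22% of all genes), and the median log2 change was -0.20. The 3 that fell were Fgf21, Inhbe and Chac1. The 3 that rose were Cebpb, by 1.15 (adjusted p = 0.0036), Ddit4, by 1.16, and Slc38a2, an amino acid transporter, by 1.03 (adjusted p = 0.0426). The last of these calls was lost without AM251/IDFP 2, 3, 4 or 5 or DMSO 1, 2, 3, 4 or 5 (adjusted p of 0.0514 to 0.102) and with a floor of 10 units in place of normexp, with no detection filter, with the mean over probes and with trended and robust variances (adjusted p of 0.0588 to 0.0695). The 3 rises became 1 without AM251/IDFP 2, 3, 4 or 5 or DMSO 3, 4 or 5, and 5 without DMSO 6.

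Transcription factors of interferon signaling and bile acid sensing were among the other persisting falls. Irf1 gave 1425, 1346, 1264, 1022 and 1330 in AM251/IDFP mice, 869, 1157 and 1426 in IDFP mice, and 1570, 2281 and 3076 in DMSO mice and fell by 0.84 (SE 0.17, adjusted p = 0.00595). Irf3, which acts downstream of innate sensors of nucleic acids, gave 1976, 1573, 1575, 1560 and 1759 in AM251/IDFP mice, 1596, 1852 and 2252 in IDFP mice, and 2316, 3005 and 3432 in DMSO mice and fell by 0.79 (SE 0.12, adjusted p = 0.000658). Neither overlapped with DMSO, and both lay within the IDFP range or close to it, with differences from IDFP of 0.18 (95% interval -0.16 to 0.51, adjusted p = 0.558) and -0.15 (95% interval -0.38 to 0.08, adjusted p = 0.453). The dimmer probes gave smaller log2 changes, of -0.34, -0.55 and -0.51 for Irf1 and of -0.35 and -0.24 for Irf3. Of 44 interferon-stimulated genes 5 fell and none rose (11.4% lower, against 6.22%), with a median of -0.07. The others were the immunoproteasome subunits Psmb10 and Psmb9, which fell by 0.55 and 0.41, and the peptide transporter Tap2, which fell by 0.35. The dimmer probe of Psmb10 gave -0.06 (unadjusted p = 0.613), and its mean over probes -0.31 (adjusted p = 0.0476). The calls of Psmb9 and Tap2 were the weakest, and the list had 3 calls without AM251/IDFP 1, 2, 3 or 4 or DMSO 3 or 4. Nr1h4, the bile acid receptor FXR, gave 4528, 3394, 3520, 4115 and 3781 in AM251/IDFP mice, 2629, 3080 and 3885 in IDFP mice, and 5546, 6221 and 6891 in DMSO mice. It fell by 0.68 (SE 0.11, adjusted p = 0.00107) without overlap with DMSO, and IDFP gave -0.97 (adjusted p = 2.85e-06). Otub2, Kctd2 and Prtn3 were further persisting falls of about 2-fold, with log2 changes of -1.12, -1.04 and -1.12, and kept their calls in all alternatives. The dimmer probe of Otub2 gave a smaller change of -0.38 (unadjusted p = 0.0255).

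**Figure D3:**
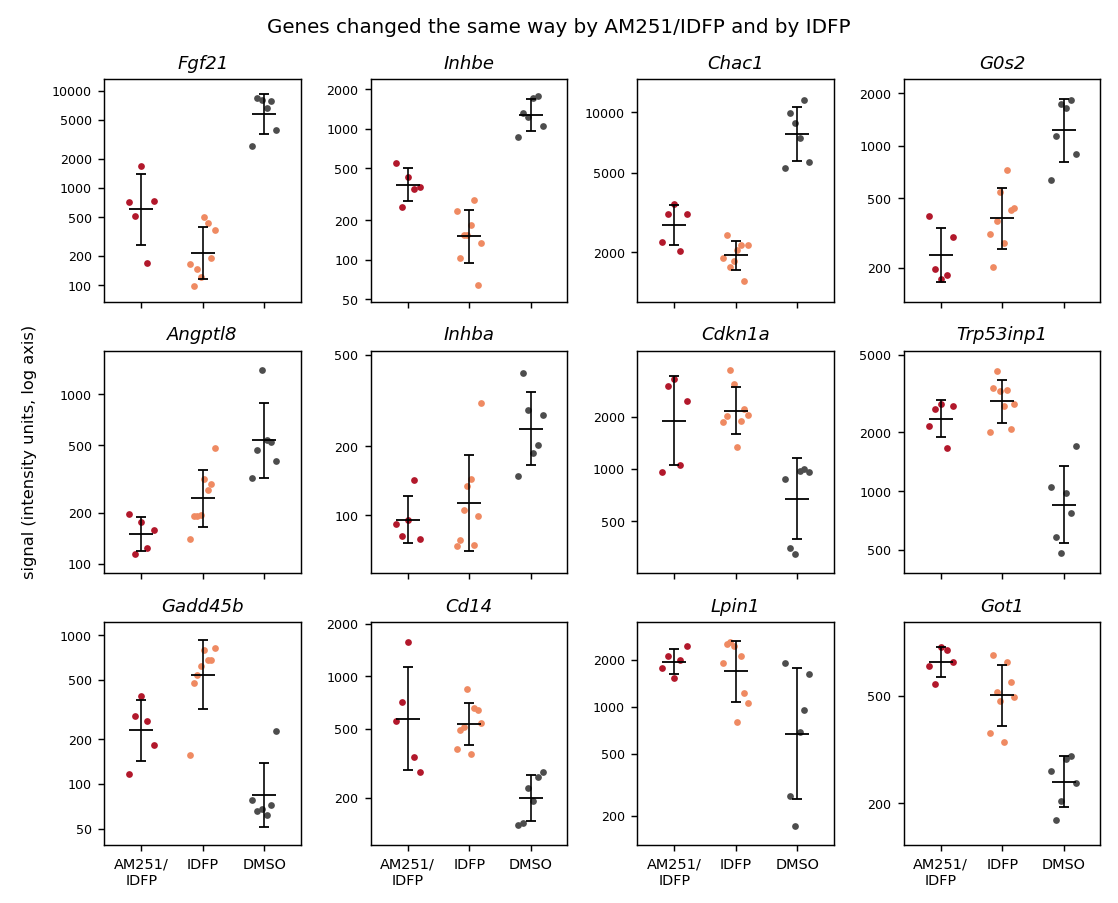
Signals of 12 persisting genes in each mouse, in intensity units on log axes, with AM251/IDFP left (n = 5), IDFP in the middle (n = 8) and DMSO right (n = 6). Points are mice and black bars the mean ± SD of log2 signals. In the first 6 genes all AM251/IDFP mice lie below all DMSO mice, and Fgf21 and Inhbe lie lower with IDFP than with AM251/IDFP.

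Rises that persisted included transaminase, growth arrest and early response genes. Got1, the cytosolic aspartate aminotransferase, gave 642, 549.8, 759, 735 and 664 in AM251/IDFP mice, 337, 505 and 707 in IDFP mice, and 173, 251 and 299 in DMSO mice. No DMSO mouse reached the lowest AM251/IDFP mouse, and Got1 rose by 1.47 (SE 0.18, adjusted p = 9.91e-05). Cebpb, a transcription factor of liver metabolism and the acute phase, gave 9532, 12650, 11360, 12650 and 10740 in AM251/IDFP mice, 8872, 10620 and 11400 in IDFP mice, and 2408, 4920 and 8761 in DMSO mice and rose by 1.15 (SE 0.22, adjusted p = 0.0036), and H3f3b, which encodes the replacement histone H3.3, gave 9324, 13820, 13180, 11220 and 11890 in AM251/IDFP mice, 9608, 13460 and 14090 in IDFP mice, and 4568, 5974 and 7475 in DMSO mice and rose by 0.96 (SE 0.14, adjusted p = 0.000573). Both were separate from DMSO and overlapped with IDFP, and for H3f3b near-identical H3 genes may share signal. Trp53inp1, a p53 target, gave 2153, 2626, 2790, 1659 and 2729 in AM251/IDFP mice, 2002, 3032 and 4124 in IDFP mice, and 482, 874 and 1704 in DMSO mice. Only DMSO mouse 6, at 1704 units, overlapped with the AM251/IDFP mice, and Trp53inp1 rose by 1.47 (SE 0.25, adjusted p = 0.00218). Cdkn1a, the cell cycle inhibitor p21, gave 962, 3012, 3300, 1046 and 2441 in AM251/IDFP mice, 1334, 2017 and 3706 in IDFP mice, and 323, 915 and 1002 in DMSO mice and rose by 1.49 (SE 0.37, adjusted p = 0.016). AM251/IDFP mice 1 and 4 lay close to the highest DMSO mice. The call was lost in the fit of only the 2 groups and with the replicate number as a block (adjusted p of 0.0505 to 0.0511). Gadd45b, a stress and growth arrest gene, gave 116, 287, 390.2, 263 and 183 in AM251/IDFP mice, 157, 649.5 and 819 in IDFP mice, and 62.0, 70.1 and 228 in DMSO mice and rose by 1.44 (SE 0.39, adjusted p = 0.0252), a call that was lost without AM251/IDFP 2, 3 or 4 or DMSO 3, 4 or 5 (adjusted p of 0.0567 to 0.0739). IDFP alone gave log2 changes of 1.06 (adjusted p = 0.000131) for Got1, 1.76 (adjusted p = 3.19e-05) for Trp53inp1 and 2.69 (adjusted p = 3.56e-05) for Gadd45b.

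Cd14, the coreceptor of lipopolysaccharide on hepatocytes and macrophages, gave 554, 713, 1578, 341 and 282 in AM251/IDFP mice, 358, 524 and 838 in IDFP mice, and 139, 209 and 282 in DMSO mice. All AM251/IDFP mice exceeded the DMSO mice, mouse 5 only just, and mouse 3 was far above the rest. Cd14 rose by 1.51 (SE 0.33, adjusted p = 0.00902), and IDFP gave 1.41 (adjusted p = 0.00247). Rgs1, which speeds the shutting off of G proteins, showed a log2 change of 1.36 (SE 0.29, adjusted p = 0.00783) with AM251/IDFP and 2.20 (adjusted p = 1.26e-05) with IDFP, and was detected on 2 of 6 DMSO arrays. The size of this change is thus uncertain, as it was 2.58 with a floor of 10 units in place of normexp and 0.87 with the mean over probes, although the call was kept, and the dimmer probes gave 0.70 and 0.56. Nfkbia and Nfkbib, inhibitors of NF-kappaB, rose by 0.91 (SE 0.21, adjusted p = 0.0116) and 0.93 (SE 0.17, adjusted p = 0.0036). Lpin1, a phosphatidate phosphatase, rose by 1.54 (SE 0.48, adjusted p = 0.0477), but its call was lost in 22 of the 30 alternatives (adjusted p up to 0.117). A cAMP response element, TGACGTCA, stands in the promoter of Dusp1, an early response phosphatase that rose by 1.10 (SE 0.30, adjusted p = 0.0257), a call lost without AM251/IDFP 3 or 4 or DMSO 2, 3 or 4 (adjusted p of 0.0507 to 0.0671) and in the fit of only the 2 groups (adjusted p = 0.0534). It is shown, with the match in capitals, because cAMP signaling in hepatocytes acts through this element.
Dusp1: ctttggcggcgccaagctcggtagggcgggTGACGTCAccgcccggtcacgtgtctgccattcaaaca
This stretch is chr17:26508578-26508645 (minus strand, match starting 143 bases before the gene start). TGACGTCA, which reads the same on both strands, was found in 1.79% of 32851 promoters, in 3.28% of the tested genes, in 8 of 106 persisting higher genes (7.55%) and in 10 of 210 persisting lower genes (4.76%). Here too a match does not show that a factor binds, and the part of cAMP signaling in the rise of Dusp1 was not tested.

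Genes that respond to glucocorticoids, the adrenal hormones of stress and fasting, held the largest share of rises among the lists of at least 10 tested genes. Of 25 tested, 12 rose, none fell and 13 were not called (48% higher, against 3.66% of all genes), with a median log2 change of 0.91. In 8 the rise persisted from IDFP, in 2 it was found with both drugs only, and 2 could not be sorted. Sgk1, a kinase induced by the glucocorticoid receptor, gave 3219, 4231, 4307, 3808 and 4604 in AM251/IDFP mice, 2075, 2786 and 3853 in IDFP mice, and 1262, 2068 and 2621 in DMSO mice. It was higher in every AM251/IDFP mouse than in any DMSO mouse and rose by 1.04 (SE 0.19, adjusted p = 0.0036). Tat, tyrosine aminotransferase, a classical glucocorticoid target, gave 123, 162, 231, 249 and 345 in AM251/IDFP mice, 57.1, 109 and 274 in IDFP mice, and 38.0, 71.1 and 113 in DMSO mice and rose by 1.60 (SE 0.38, adjusted p = 0.0138), also without overlap with DMSO. Fam107a rose by 1.17 (SE 0.24, adjusted p = 0.00572) and was not called with IDFP, where its change was 0.37 (adjusted p = 0.245). The other rises were Got1, Cebpb, Nfkbia, Cdkn1a, Per1, Dusp1, Ddit4, Igfbp1 and Angptl4. Got1, Sgk1, Cebpb, Fam107a, Nfkbia and Tat kept their calls in all 30 alternatives. The 12 calls were 7 to 14 when 1 array was left out, with 7 without AM251/IDFP 4. The list was written with earlier results of these data known.

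Lists that share members with it also held more rises than falls. Their shares stand against 3.66% of all genes that were higher. Immediate early genes are the first to answer a stimulus, and of 22 tested 7 were higher and none lower (31.8% higher), with a median of 0.45, and all 7 persisted from IDFP. They were Klf2, Jun, Rhob, Gadd45b, Dusp1, Zfp36 and Klf4, with log2 changes of 0.48 to 1.44. None of these calls was kept in every alternative, and the 7 became 4 without AM251/IDFP 2 or DMSO 5, 2 without AM251/IDFP 4 or DMSO 4, and 1 without AM251/IDFP 3 or DMSO 3. Of 32 NF-kappaB and chemokine genes 6 rose and 1 fell (18.8% higher), with a median of 0.14. Besides Nfkbia and Nfkbib these were the kinase Map3k8, the chemokine Ccl6, the adhesion molecule Vcam1 and Nfkbiz, and Cxcl12 fell by 0.33. The 6 rises became 3 without AM251/IDFP 2 and 2 without AM251/IDFP 3 or DMSO 3. Of 17 clock genes 3 rose (17.65% higher), namely Noct by 1.94 (SE 0.45, adjusted p = 0.0123), Per1 by 1.31 (SE 0.34, adjusted p = 0.0203) and Cry2 by 0.58 (SE 0.17, adjusted p = 0.0309). Of these Noct kept its call in every alternative, and the 3 became 1 without AM251/IDFP 4 and 6 without DMSO 1. Of 20 genes of gluconeogenesis and the FOXO1 axis 3 rose (15% higher), Foxo1, Igfbp1 and Ppargc1a, by 0.58, 1.36 and 0.79. No call was left among them without AM251/IDFP 4 or 5 or DMSO 3. There was 1 call without AM251/IDFP 2 or 3 or DMSO 2 or 4. Of 23 p53 target and growth arrest genes 3 rose (13.04% higher), Trp53inp1, Cdkn1a and Gadd45b.

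Urea cycle and amino acid catabolism genes, through which the fasted liver disposes of nitrogen, showed more rises than falls. Of 52 tested, 9 rose and 3 fell (17.3% higher and 5.77% lower, against 3.66% and 6.22% of all genes). The median of 0.08 was however near that of all genes. Slc25a15, the ornithine carrier of liver mitochondria, gave 5608, 5316, 5346, 6547 and 5509 in AM251/IDFP mice, 3100, 3827 and 5007 in IDFP mice, and 1891, 2670 and 3209 in DMSO mice. It was higher in all AM251/IDFP mice than in any IDFP or DMSO mouse and rose by 1.17 (SE 0.14, adjusted p = 6.94e-05), and IDFP gave a smaller rise of 0.64 (adjusted p = 0.00112). Aass, the first enzyme of lysine breakdown, gave 1810, 1904, 2115, 2364 and 1722 in AM251/IDFP mice, 756, 1024 and 1586 in IDFP mice, and 565, 1059 and 1162 in DMSO mice. It rose by 1.03 (SE 0.19, adjusted p = 0.0036) with both drugs only. Its 2 dimmer probes gave 0.58 and 0.48 (unadjusted p of 0.157 and 0.227), and the call was lost with the mean over probes (adjusted p = 0.128). Cdo1, which oxidizes cysteine, Ass1 and Arg1 of the urea cycle, and Dbt of branched-chain catabolism rose by 0.34 to 0.51, beside Got1, Tat and Nnmt, although a dimmer probe of Dbt gave -0.03 (unadjusted p = 0.87). Nnmt methylates nicotinamide and belongs to neither pathway, but it was on the list and is counted among the 9 rises. Prodh2 fell by 0.59 (SE 0.12, adjusted p = 0.00595), and Uroc1 and Got2 fell by 0.33 and 0.27. Of the 3 probes of Prodh2, the other 2 gave -0.06 and -0.09 (unadjusted p of 0.52 and 0.407), and the mean over probes gave -0.25 (adjusted p = 0.0396). The 9 rises were 6 to 11 when 1 array was left out, and the 3 falls became 1 without AM251/IDFP 1, 2, 3 or 4, IDFP 2, 4 or 7 or DMSO 3, 4 or 5.

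**Figure D4:**
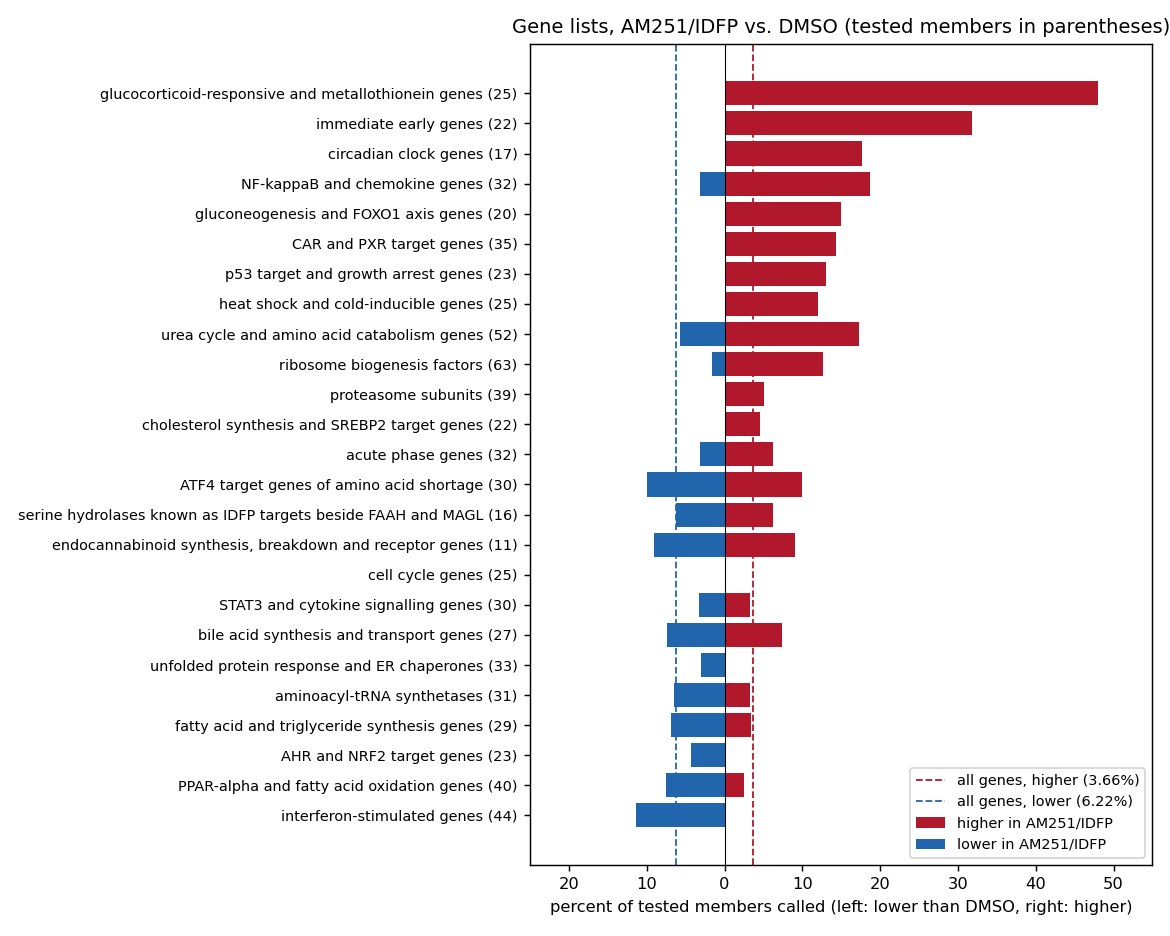
Percent of the tested members of each gene list that were higher (right) or lower (left) in AM251/IDFP than in DMSO at an adjusted p under 0.05, for pathway lists of at least 10 tested members (number in parentheses). Dashed lines mark the share of all genes, 3.66% higher and 6.22% lower. The glucocorticoid and immediate early lists reach farthest to the right, at 48% and 31.8%.

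Of the 387 persisting genes, 27 differed between AM251/IDFP and IDFP and 360 were not called. In 20 of the 27 the change was smaller with AM251/IDFP, 17 of them falls. Besides Fgf21 and Inhbe these included Flcn, the folliculin gene, whose log2 change was -0.70 with AM251/IDFP and -1.44 with IDFP, Lrrc75a with -0.72 and -1.85, the purine receptor P2ry13 with -0.71 and -1.44, and the splicing factor Rbm5 with -0.51 and -1.11. Gadd45b, Arhgap26 and Cytip were rises that were smaller, with log2 changes of 1.44, 0.63 and 0.80 with AM251/IDFP and 2.69, 1.35 and 1.51 with IDFP. In 7 the change was larger with AM251/IDFP. Lima1, an actin-binding protein of sterol uptake, gave 294, 227, 214, 247 and 315 in AM251/IDFP mice, 320.0, 418 and 558 in IDFP mice, and 408, 568 and 924 in DMSO mice. All AM251/IDFP mice lay below every IDFP and DMSO mouse, with a log2 change of -1.27 (SE 0.18, adjusted p = 0.000573) and a difference from IDFP of -0.69 (95% interval -1.05 to -0.34, adjusted p = 0.0118). The calls against DMSO of Flcn, P2ry13 and Rbm5 were lost without DMSO 3 (adjusted p = 0.0554) and with the mean over probes (adjusted p = 0.081) for Flcn, without AM251/IDFP 2 or 4 or DMSO 3, 4 or 5 (adjusted p of 0.0502 to 0.082) and with a floor of 10 units in place of normexp (adjusted p = 0.138) for P2ry13 and without AM251/IDFP 2 or DMSO 3 or 5 (adjusted p of 0.0561 to 0.0597) and in the fit of only the 2 groups (adjusted p = 0.059) for Rbm5, and those of Lrrc75a, Cytip and Arhgap26 in 12, 11 and 20 of the 30 alternatives. Without DMSO 3 or 5 the fall of Lima1 with IDFP was not called. The others were Slc25a15, the helicase Ddx28 and Ranbp9, which rose, and Ankmy2, Bloc1s5 and Tspan14, which fell, and these 6 kept their calls against DMSO in all 30 alternatives. In 18 of them for Ddx28, 10 for Ranbp9, 5 for Bloc1s5 and 1 for Ankmy2 the gene was no longer sorted as persisting. Flcn, Lrrc75a, P2ry13, Rbm5, Arhgap26, Cytip, Ddx28, Ranbp9, Ankmy2, Bloc1s5 and Tspan14 were named after their values were seen.

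In 8 genes AM251/IDFP and IDFP were called in opposite directions from DMSO, 5 higher and 3 lower with AM251/IDFP. Eps8l2, an actin regulator, gave 485, 486, 447, 494 and 432 in AM251/IDFP mice, 802, 1133 and 1359 in IDFP mice, and 586, 726 and 860.2 in DMSO mice. Every AM251/IDFP mouse lay below all DMSO and IDFP mice, the IDFP range began within the DMSO range, and Eps8l2 fell by 0.61 (SE 0.13, adjusted p = 0.00839) with AM251/IDFP while IDFP gave 0.60 (adjusted p = 0.00141). Stap2, an adaptor of STAT3 signaling, gave 714, 664, 869, 693 and 536 in AM251/IDFP mice, 302, 363 and 386 in IDFP mice, and 329, 500.4 and 528 in DMSO mice and rose by 0.55 (SE 0.12, adjusted p = 0.0106), and IDFP gave -0.41 (adjusted p = 0.0136). Both calls against DMSO were kept in all 30 alternatives. The dimmer probe of Eps8l2 gave -0.21 (unadjusted p = 0.184), and that of Stap2 gave 0.31 (unadjusted p = 0.0448). With IDFP the dimmer probe of Stap2 gave -0.17 (unadjusted p = 0.206). With the mean over probes and with the replicate number as a block, Stap2 was sorted as changed with both drugs only. Steap4, a metalloreductase induced by cytokines and by fasting, gave 574, 549, 912, 569.5 and 511 in AM251/IDFP mice, 65.1, 89.6 and 194 in IDFP mice, and 172, 249.9 and 530.3 in DMSO mice. DMSO mouse 6 reached into the AM251/IDFP range, the rise was 1.15 (SE 0.34, adjusted p = 0.0349), and the dimmer probe of Steap4 gave 0.01. The call was lost without AM251/IDFP 2, 3 or 4 or DMSO 1, 2, 3 or 4 (adjusted p of 0.0552 to 0.0947). It was also lost with a floor of 10 units in place of normexp, with the mean over probes and with the replicate number as a block (adjusted p of 0.07 to 0.117). Crem, a repressor of cAMP signaling, rose by 0.50 (SE 0.15, adjusted p = 0.0345) while its change with IDFP was -0.79 (adjusted p = 0.0003). Its call was lost without AM251/IDFP 2, 3 or 5 or DMSO 1, 3 or 4 (adjusted p of 0.0578 to 0.0928). It was also lost with a floor of 10 units in place of normexp, with no detection filter, with the mean over probes, in the fit of only the 2 groups and with the replicate number as a block (adjusted p of 0.0552 to 0.0784). Insc and Cldn14 rose by 0.83 (SE 0.20, adjusted p = 0.0155) and 0.75 (SE 0.22, adjusted p = 0.0334). The call of Cldn14 was lost without AM251/IDFP 2, 3, 4 or 5 or DMSO 2, 3 or 4 (adjusted p of 0.0565 to 0.0982) and with a floor of 10 units in place of normexp and in the fit of only the 2 groups (adjusted p of 0.0635 to 0.0675). It was not in opposite directions in 22 of the 30 alternatives, since in those that kept its call IDFP alone was no longer called. Krt23, a keratin, and Tjp3, a tight junction protein, fell by 0.87 (SE 0.26, adjusted p = 0.0357) and 0.51 (SE 0.13, adjusted p = 0.0223). Their calls were lost without AM251/IDFP 1, 2, 3 or 4 or DMSO 3, 4 or 5 (adjusted p of 0.0526 to 0.106) and with no detection filter, with array weights and in the fit of only the 2 groups (adjusted p of 0.0523 to 0.0621) for Krt23 and without AM251/IDFP 3 or DMSO 3 (adjusted p of 0.0578 to 0.0594) for Tjp3. The number of such genes was 4 without AM251/IDFP 3 or DMSO 3 or 4, 5 without AM251/IDFP 2 or 4, and 12 without IDFP 1.

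**Figure D5:**
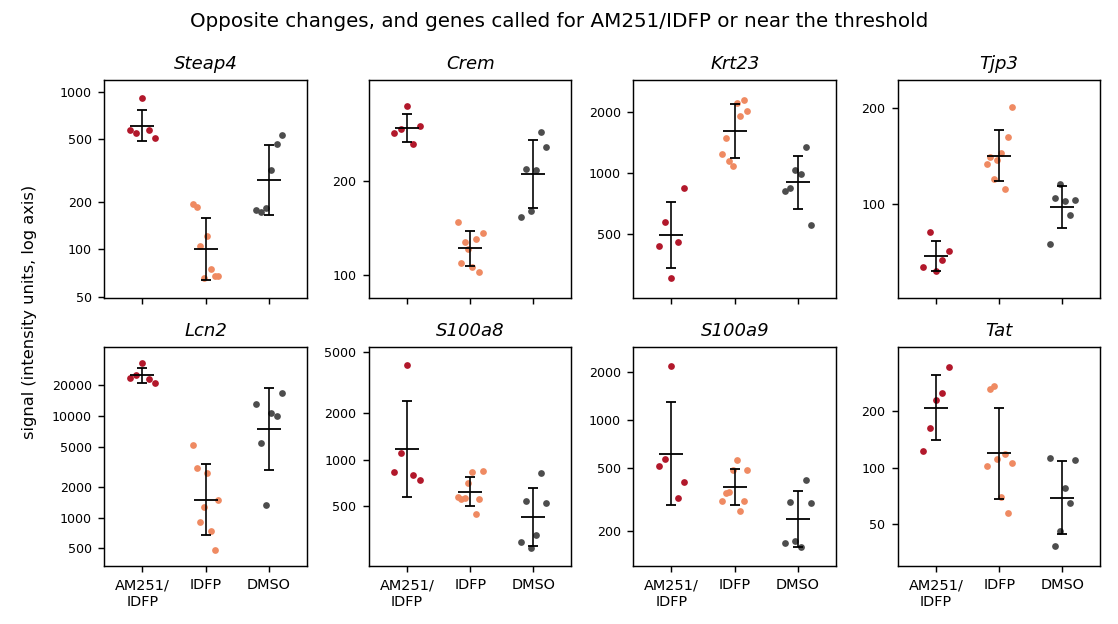
Signals of 8 genes in each mouse, in intensity units on log axes, with AM251/IDFP left (n = 5), IDFP in the middle (n = 8) and DMSO right (n = 6). Points are mice and black bars the mean ± SD of log2 signals. Steap4 and Crem are high with AM251/IDFP and low with IDFP, Krt23 and Tjp3 the reverse, Lcn2 spreads widely among DMSO mice, and S100a8 and S100a9 are highest in AM251/IDFP mouse 3.

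Lcn2, Saa3 and Orm1, secreted proteins of the acute phase, did not pass the test. Lcn2, the iron-siderophore binding protein lipocalin 2, gave 23780, 25560, 33680, 23100 and 21360 in AM251/IDFP mice, 474, 1390 and 5156 in IDFP mice, and 1328, 10360 and 16770 in DMSO mice. AM251/IDFP mice lay above all DMSO mice, but the DMSO mice spread over a wide range and the log2 change of 1.76 (SE 0.58, adjusted p = 0.0572) missed the threshold, which it passed without IDFP 1 or 7 or DMSO 1 or 6 (adjusted p down to 0.032). Saa3 gave 4391, 637, 9503, 559 and 671 in AM251/IDFP mice, 212, 284 and 506 in IDFP mice, and 169, 470.0 and 1220 in DMSO mice, with mice 1 and 3 far above the others, and a log2 change of 1.73 (SE 0.60, adjusted p = 0.0713), which passed without AM251/IDFP 4 or 5 or DMSO 6 (adjusted p down to 0.0359). For Orm1 the change was 0.52 (SE 0.17, adjusted p = 0.061), and it passed in 6 of the 30 alternatives, among them those without AM251/IDFP 5, IDFP 1, 6 or 7 or DMSO 6. Of 32 acute phase genes 2 rose, Cd14 and Steap4, and 1 fell, Serpina10, by 0.33 (adjusted p = 0.0469). The share called, 9.38%, was near the 9.88% of all genes. The call of Serpina10 was lost without AM251/IDFP 1, 2, 4 or 5, IDFP 2, 3, 4, 5, 6, 7 or 8 or DMSO 2, 3, 4, 5 or 6. It was also lost in at least 1 setting with all arrays. There were 7 rises without DMSO 6, 4 without AM251/IDFP 5 or IDFP 1 or 7, and 1 without AM251/IDFP 2 or 3 or DMSO 2, 3 or 4.

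Of 9 neutrophil markers tested, 4 rose and 1 fell (44.4% higher and 11.1% lower, against 3.66% and 6.22% of all genes). The 4 rises could not be sorted by the behavior of IDFP alone. S100a8, a subunit of calprotectin, gave 834, 1102, 4107, 793 and 736 in AM251/IDFP mice, 446, 570.4 and 844 in IDFP mice, and 268, 423 and 821 in DMSO mice. Mouse 3 stood far above the others, which lay near or above the highest DMSO mouse, and S100a8 rose by 1.46 (SE 0.36, adjusted p = 0.0157), a call that was lost in the fit of only the 2 groups (adjusted p = 0.059). S100a9, its partner, rose by 1.36 (SE 0.36, adjusted p = 0.0234), a call that was lost without DMSO 3 or 4 (adjusted p of 0.0564 to 0.0594) and in the fit of only the 2 groups (adjusted p = 0.0693), with a change of 0.90 without mouse 3. Retnlg gave 136, 221, 348, 116 and 109 in AM251/IDFP mice, 79.2, 97.5 and 143 in IDFP mice, and 40.9, 70.2 and 85.1 in DMSO mice and rose by 1.37 (SE 0.25, adjusted p = 0.0036) without overlap with DMSO. Il1r2 rose by 0.94 (SE 0.25, adjusted p = 0.0216), a call that was lost without DMSO 3 (adjusted p = 0.0586) and in the fit of only the 2 groups (adjusted p = 0.074), with 0.59 without mouse 3, and Prtn3 fell as described. The summed signal of the 8 markers other than Lcn2 was 1583 to 7289 units (median 1876) in AM251/IDFP mice, 1146 to 1886 (median 1334) in IDFP mice and 889 to 2005 (median 1194) in DMSO mice. Mpo, Elane, Camp, Ltf, Cxcr2, Mmp8, Stfa1 and Cd177, which also mark neutrophils, were on the array and not detected. Without DMSO 3 the 4 rises became 2. The part that cells of this type had in the signals of Cd14, Saa3, Lcn2 and Steap4, which were also highest in mouse 3, was not tested.

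Lists of lipid metabolism stood close to the background of all genes, 3.66% higher and 6.22% lower. Of 40 PPAR-alpha and fatty acid oxidation genes 1 rose (Angptl4, by 0.61) and 3 fell (Fgf21, G0s2 and Acsl5), 2.5% and 7.5%. Of 29 lipogenic genes 1 rose (Lpin1) and 2 fell, 3.45% and 6.90%. Of 22 cholesterol synthesis genes 1 rose (4.55%) and none fell. With 1 array left out, these counts were 0 to 3 higher and 1 to 3 lower, or 1 to 2 higher and 0 to 1 lower for the cholesterol genes. Among these, Mlxipl, the carbohydrate response factor ChREBP, fell by 0.77 (SE 0.18, adjusted p = 0.0138) and Insig2, which holds back the processing of SREBP, rose by 0.61 (SE 0.15, adjusted p = 0.0168), both kept in all 30 alternatives. Acaca, acetyl-CoA carboxylase, fell by 0.56 (SE 0.17, adjusted p = 0.0362), a call that was lost without AM251/IDFP 1, 2, 3 or 5 or DMSO 2, 3 or 6 (adjusted p of 0.0518 to 0.0977) and with a floor of 10 units in place of normexp, with no detection filter and in the fit of only the 2 groups (adjusted p of 0.0514 to 0.0601). Of 27 bile acid genes 2 rose and 2 fell (7.41% each way, against 3.66% and 6.22% of all genes). The 2 rises became 0 without AM251/IDFP 2, 3 or 4 or DMSO 2, 3, 4 or 5. No call was made among 25 cell cycle genes, and 0 of 23 AHR and NRF2 targets rose and 1 fell (4.35%). Mfsd2a, a lysophosphatidylcholine transporter that fasting induces, and Gpcpd1, which breaks down glycerophosphocholine, gave larger changes. Mfsd2a gave 4542, 3662, 2033, 4466 and 5118 in AM251/IDFP mice, 714, 2726 and 3252 in IDFP mice, and 103, 998 and 2590 in DMSO mice. The DMSO mice spanned a wide range whose upper end overlapped AM251/IDFP mouse 3, the rise was 2.37 (SE 0.64, adjusted p = 0.0239), and the call was lost without AM251/IDFP 4 or DMSO 2 or 3 (adjusted p of 0.0501 to 0.0553) and in the fit of only the 2 groups (adjusted p = 0.0628). Gpcpd1 rose by 1.53 (SE 0.28, adjusted p = 0.00334) and Upp2, uridine phosphorylase, by 1.48 (SE 0.32, adjusted p = 0.00902), both kept in all alternatives, although their IDFP changes of 0.78 (adjusted p = 0.0389) and 0.87 (adjusted p = 0.0448) were called in only part of them.

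Markers of the liver zones and of other liver cells were tested as lists. Of 9 periportal hepatocyte markers 2 rose, Ass1 and Arg1 (22.2%, against 3.66% of all genes), with summed signals of 80720 to 99710 units in AM251/IDFP mice, 72410 to 99720 in IDFP mice and 59260 to 80960 in DMSO mice. There were no calls among them without AM251/IDFP 4 or DMSO 3 or 5, and 1 without AM251/IDFP 1 or 2, IDFP 3 or 7 or DMSO 2 or 4. Of 11 pericentral markers 2 fell, Tbx3 and Lgr5, by 0.90 and 0.68 (18.2%, against 6.22% of all genes), and the sums were 70820 to 76920 units in AM251/IDFP mice, 63370 to 69460 in IDFP mice and 71130 to 76980 in DMSO mice. Of 16 Kupffer cell and macrophage markers 1 fell (Slc40a1, 6.25%), of 17 endothelial markers 2 fell (Gpr182 and Clec4g, 11.8%), and none of 15 stellate cell, 3 cholangiocyte, 8 lymphocyte and 9 erythroid and platelet markers was called. The dimmer probe of Gpr182 gave a log2 change of -0.20 (unadjusted p = 0.312), against -0.59 by its brightest probe. The pericentral falls became 1 without AM251/IDFP 2 or DMSO 2, 3 or 4. The endothelial falls became 0 without AM251/IDFP 2 and 1 without AM251/IDFP 3 or 4 or DMSO 3, 4 or 5. The fall of Slc40a1 left that list with 0 falls without AM251/IDFP 1, 3 or 4 or DMSO 1, 3, 4 or 5, and it had 2 without AM251/IDFP 5, IDFP 6 or DMSO 6. The part of these cells in the changes above was not tested.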

How the data were processed

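The deposited values were bead intensities of Illumina MouseRef-8 arrays, for which BeadStudio 3.2 had been used by the authors to quantile-normalize signals and subtract background. Replicates were separate mice, and their number limits the precision. As 30.15% of values lay below 0, a normexp correction with an offset of 16 was applied, followed by quantile normalization and log2. Probes were named through the platform annotation, and 16593 genes were named. A probe counted as detected above 1.645 background SDs (17.47 to 17.56 units on the deposited scale), and each gene was read through its brightest detected probe, which left 9346 genes. One limma model (limma 3.58.1, R 4.3.3) of the 3 groups gave each difference, with Benjamini-Hochberg adjustment over all genes tested. The model was tested on simulated data with independent normal noise for each gene and array. Such data hold no spread shared across genes, so that test could not show how a shared spread affects the calls. Figures were drawn with Python 3.11.15 and matplotlib 3.10.9. Another 38 columns of per-array values, with 4 chip numbers, were not tied to mice and were not used, so effects of chips were not tested. The alternatives were 2 other offsets, median scaling, a floor of 10 units, the mean over probes, 2 other detection filters, trended and robust variances, array weights, the 2 groups of a contrast alone, a block for the replicate number, and leaving out each array.

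Named genes were the 15 largest changes of each sign, the 10 largest of each sign that persisted from IDFP and that were found with both drugs only, all those in opposite directions, the called members of 36 gene lists with up to 4 others each, and genes of the endocannabinoid system and of the study's own list. The comparison, its members and the lists were chosen with earlier results of these data known.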

Additional observations from a re-analysis of the deposited data

Results flagged for a closer look

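In 141 groups of signals, 3 for each of the 47 genes whose signals are given by mouse, 11 single mice stood far from the rest of their group, and chance alone gives about 1 such mouse in 20 groups. In the AM251/IDFP group, mouse 3 was high for S100a8 (4107 units, next 1102) and Steap4 (911.8 units, next 573.5), mouse 1 was high for Cyb561a3 (238 units, next 161.4), and mouse 4 was high for Slc25a15 (6547 units, next 5608). In the IDFP group, mouse 1 was low for Gadd45b (156.8 units, next 477.9) and mouse 8 was high for Inhba (308.3 units, next 144.4). In the DMSO group, mouse 3 was high for Angptl8 (1390 units, next 536.2) and Faah (4466 units, next 3260) and low for Stap2 (328.7 units, next 488.7). DMSO mouse 2 was low for Aass (564.6 units, next 970.6), and DMSO mouse 6 was high for Gadd45b (228 units, next 78.5).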

How the results depend on the processing

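Of the 149 called genes that were followed singly, 63 kept their call against DMSO in all 30 alternatives, 17 lost it only when 1 array was left out, 69 lost it in at least 1 setting with all arrays, and 0 changed direction. With 1 array left out, the genes called were 408 to 1198 (923 with all arrays), the persisting genes 149 to 592 (387) and those changed with both drugs only 94 to 238 (213). A fit of only the 2 groups of each contrast gave 450, 196 and 137 in the same order, and no detection filter gave 632, 235 and 136. The first has fewer residual degrees of freedom and the second more genes tested. With the replicate number as a block the counts were 790, 265 and 131. Insc lost its call only with this block (adjusted p = 0.0574). For other single genes above, losses with this block may not all be listed. The numbers did not pair the mice: correlations of deviations between same-numbered AM251/IDFP and DMSO mice were -0.0566 to 0.1289, and 1 of 5 AM251/IDFP mice was closest to its own number. The share of higher genes moved by less than 10 percentage points in every scaling. Genes near background, such as Hcar2 and Slc34a2, are limited by the signal over background, and a floor of 10 units in place of normexp gave larger log2 changes for them (2.41 for Hcar2, 2.39 for Retnlg, 2.34 for Fam107a and 2.59 for Tat).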
